A study of Homo sapiens with 8 samples.

Results

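MALAT1, NEAT1 and KCNQ1OT1 are long non-coding RNAs that stay in the nucleus. The 3 genes were chosen by name from the 38148 genes of the deposited expression table, because their levels had already been seen to be high after selumetinib. Their levels and their differences between groups are therefore descriptions, given with the spread between libraries and without a test. Selumetinib is an inhibitor of MEK, which lies just above ERK in the RAF-MEK-ERK cascade. The cells were HT29, an established human colorectal cancer cell line, and the study asked which genes are expressed in cells that enter the cell cycle despite the drug. After glyoxal fixation, the cells were sorted by flow cytometry on an antibody stain for cyclin B1, the product of CCNB1, which accumulates late in the cell cycle. There were 4 groups with 2 libraries of poly(A)-selected RNA each: untreated CCNB1-negative, untreated CCNB1-positive, and CCNB1-negative and CCNB1-positive cells after selumetinib at 1 μM for 24 h. Nothing in the labels says whether the 2 libraries came from separate cultures, so the spread between them may be technical.

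The labels of the libraries contradict each other. The title and the short description of each of the 8 libraries disagree on treatment as well as on fraction, always by the reverse. The groups used here follow the descriptions, which are also the column names of the table. Under the titles, each response to selumetinib given here for a fraction would belong to the other fraction with its sign changed, and the differences between fractions would trade treatments in the same way. Mean log2 values of CCNB1 were 11.83 in untreated CCNB1-negative cells, 13.92 in untreated CCNB1-positive cells, 7.57 in treated CCNB1-negative cells and 12.65 in treated CCNB1-positive cells. Under the titles CCNB1 would be lower in CCNB1-positive than in CCNB1-negative cells, at 11.83 against 13.92 in treated and 7.57 against 12.65 in untreated cells. Among 11 genes known to be kept up by MEK and ERK, 10 fell with selumetinib in each fraction and 1, EGR1, rose. Of the 14219 genes tested, 35.8% were called lower and 38.2% higher in CCNB1-negative cells, and 27.3% and 38% in CCNB1-positive cells. Under the titles the 10 genes would rise with selumetinib and EGR1 would fall. The values of CCNB1 and of these 10 genes go with the descriptions and not with the titles. DUSP6, an ERK phosphatase of that list, fell by 1.75 ± 0.20 (SE) on the log2 scale in CCNB1-negative cells (adjusted p = 2.2e-06, limma). All 9 markers of colon epithelium were present and 6 of them exceeded 100 reads in every library. With selumetinib limma called 2 of the 9 higher and 4 lower in CCNB1-negative cells, and 3 higher and 2 lower in CCNB1-positive cells. The lowest difference was -4.04 in CCNB1-negative cells, that of CEACAM5, which had 10 to 352 reads. The 8 markers of leukocytes, fibroblasts and endothelium summed to between 7.40 and 18.9 RPM (reads scaled to library size). Their highest sums were in treated CCNB1-positive cells. CD3E and COL3A1 had at most 1 read in any library, while CD68 had 64 to 231 reads and COL1A1 had 6 to 107. Of the 8 markers 2 were tested, CD68 and COL1A1, and limma called 1 higher and 0 lower with selumetinib in each fraction. With quantile normalisation 0 were called higher in either fraction, and 1 was called lower in the CCNB1-negative one.

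The 3 RNAs are known for different roles. MALAT1 resides in nuclear speckles, where splicing factors gather. NEAT1 is the scaffold of paraspeckles, nuclear bodies that hold RNA-binding proteins, and has a short polyadenylated form and a long form without a poly(A) tail. KCNQ1OT1 is an unspliced antisense RNA transcribed from the paternal chromosome within KCNQ1, where it silences neighbouring imprinted genes. MALAT1 and the long form of NEAT1 do not end in a usual poly(A) tail: RNase P cuts each RNA upstream of a small tRNA-like RNA, and the new end is protected by a helix that pairs a genomically encoded A-rich tract with U-rich stretches. A poly(A)-selected library therefore captures these RNAs through encoded A-rich stretches or through polyadenylated forms. Which of these gave the reads was not tested.

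In the files, which use build GRCh38, all 3 genes lie on chromosome 11. MALAT1 (ENSG00000251562) spans chr11:65497688-65506516 on the plus strand, 8829 bases. NEAT1 (ENSG00000245532) spans chr11:65422774-65445540 on the plus strand, 22767 bases, and so lies next to MALAT1. KCNQ1OT1 (ENSG00000269821) spans chr11:2608328-2699994 on the minus strand, 91667 bases, inside KCNQ1 on the plus strand.

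The last 100 bases before each cleavage site are shown because they carry the elements that both RNAs share and that poly(A) selection can meet. They were read from the genome of the same build, at chr11:65506017-65506116 for MALAT1 and chr11:65445441-65445540 for NEAT1, both on the plus strand. Capitals mark the words of at least 8 bases that both ends hold, which a search of the 2 sequences found: TTTCTTTT and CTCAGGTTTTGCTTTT, which hold the U-rich stretches (written as DNA), and AAAAAGCAAAA at the cut end.
MALAT1: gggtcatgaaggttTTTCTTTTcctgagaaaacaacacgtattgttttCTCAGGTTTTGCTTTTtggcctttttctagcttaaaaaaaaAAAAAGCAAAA
NEAT1: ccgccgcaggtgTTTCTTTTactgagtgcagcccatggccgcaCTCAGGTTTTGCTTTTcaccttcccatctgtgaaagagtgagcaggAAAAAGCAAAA
Both ends held the 3 words in the same order. Of the last 100 bases of the longest GENCODE transcript of 14136 tested genes, 2.03% held TTTCTTTT, 0.00707% held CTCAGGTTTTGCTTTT and 0.0778% held AAAAAGCAAAA on the sense strand, and 4.36%, 0.00707% and 0.134% on either strand. The last 10 bases of the latter 2 words are reverse complements of each other, so they overlap when both strands are searched. The share of 0.00707% is 1 transcript, and MALAT1 and NEAT1 were not left out of the transcripts searched. The words were picked because both ends hold them. In MALAT1 the A-rich tract is its longest run of A, 13 bases, and in NEAT1 the tract is shorter.

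The small RNAs that begin at the next base are shown because each has a row of its own in the table, and the MALAT1 row is used below. They lie at chr11:65506117-65506173 and chr11:65445541-65445598 on the plus strand, and capitals again mark the shared words of at least 8 bases, GCTGGTGGT and CGGGGTTC.
RNA past the MALAT1 end: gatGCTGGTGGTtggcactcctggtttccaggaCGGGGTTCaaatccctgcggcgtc
RNA past the NEAT1 end: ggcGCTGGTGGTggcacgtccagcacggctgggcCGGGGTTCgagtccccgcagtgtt
On either strand, GCTGGTGGT was found in the last 57 bases of 0.0354% of the same transcripts and CGGGGTTC in 0.0283%.

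The level of MALAT1 was far higher in selumetinib-treated cells than in untreated cells of either fraction. Levels below are the deposited log2 normalised read counts, in which each library is scaled to the largest one. In untreated CCNB1-negative cells MALAT1 stood at 16.34 and 16.16, and in untreated CCNB1-positive cells at 16.48 and 16.51. In treated CCNB1-negative cells it stood at 19.26 and 19.86, and in treated CCNB1-positive cells at 18.79 and 19.39. All 4 treated libraries lay above all 4 untreated ones, and replicate 2 was the higher of the treated libraries in both fractions. The difference between treated and untreated means was 3.32 on the log2 scale in CCNB1-negative cells, 9.96-fold, with a pooled SD of 0.31 (n = 2 libraries per group). In CCNB1-positive cells it was 2.59, 6.04-fold, with a pooled SD of 0.30. With quantile normalisation, which fixes the values of the leading ranks, these differences were 2.31 and 1.59. Among the 14219 genes tested, those with a mean of at least 1 RPM, 97.6% had a smaller difference than MALAT1 in the CCNB1-negative fraction and 95.8% in the CCNB1-positive one.

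**Figure D1:**
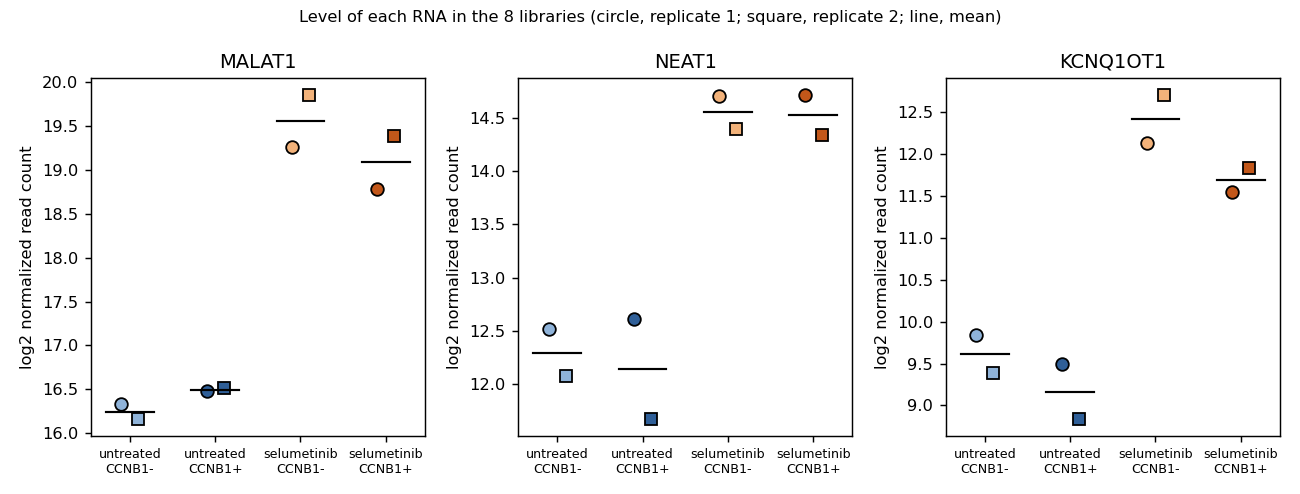
Deposited log2 normalised read count (vertical axis) of MALAT1, NEAT1 and KCNQ1OT1 in each of the 8 libraries by group, with circles for replicate 1, squares for replicate 2 and a line at the mean of the 2 libraries. For each RNA the treated libraries lie above the untreated ones, for example MALAT1 at 18.79 to 19.86 against 16.16 to 16.51, and the vertical axes start above 0.

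As a share of all reads on genes, MALAT1 took 0.348% and 0.303% of the untreated CCNB1-negative libraries and 0.382% and 0.386% of the untreated CCNB1-positive libraries. It took 2.87% and 4.42% of the treated CCNB1-negative libraries and 2.01% and 3.09% of the treated CCNB1-positive libraries. By read count MALAT1 ranked between the 8th and the 12th gene in untreated libraries, and in treated libraries it was the leading gene of 3 and the third of the other. These shares rest on 57934 to 91263 reads in untreated and 401090 to 561031 reads in treated libraries.

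NEAT1 showed the same order of treated over untreated cells at a level well below that of MALAT1. Its log2 values were 12.52 and 12.07 in untreated CCNB1-negative cells and 12.61 and 11.67 in untreated CCNB1-positive cells. They were 14.71 and 14.40 in treated CCNB1-negative cells and 14.72 and 14.34 in treated CCNB1-positive cells. Treated and untreated libraries did not overlap, and here replicate 1 was the higher in every group. The difference between treated and untreated means was 2.26 on the log2 scale in CCNB1-negative cells (4.78-fold, pooled SD 0.27) and 2.39 in CCNB1-positive cells (5.25-fold, pooled SD 0.51). Of the tested genes 91.7% had a smaller difference in the CCNB1-negative fraction, as did 94.5% in the CCNB1-positive one. NEAT1 took 0.0135% to 0.0262% of gene reads in untreated libraries and 0.0935% to 0.122% in treated libraries, and moved from rank 611 to 1571 among genes up to rank 30 to 59.

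KCNQ1OT1 had the fewest reads of the 3 and a difference of similar size. Its log2 values were 9.84 and 9.39 in untreated CCNB1-negative cells and 9.49 and 8.83 in untreated CCNB1-positive cells. They were 12.14 and 12.71 in treated CCNB1-negative cells and 11.55 and 11.84 in treated CCNB1-positive cells. The 4 treated libraries again lay above the 4 untreated ones. The difference between treated and untreated means was 2.81 on the log2 scale in CCNB1-negative cells (7.01-fold, pooled SD 0.37) and 2.54 in CCNB1-positive cells (5.80-fold, pooled SD 0.36), larger than that of 95.5% of tested genes in both. The RNA went from 416 to 847 reads in untreated libraries to 2330 to 3960 reads in treated libraries, or from 0.00189% to 0.00386% of gene reads up to 0.0134% to 0.0312%. The 95% Wilson intervals of all these shares stayed within 10.1% of the value on either side, and they cover counting error only.

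In both fractions all 3 RNAs were thus higher in treated cells without overlap, as chosen. Such a rise without overlap was seen for 44.6% of tested genes in the CCNB1-negative fraction and for 48.6% in the CCNB1-positive one, and 38.2% and 38% were called higher at an adjusted p under 0.05. In these bulk libraries, more cells with an RNA and more of that RNA per cell cannot be told apart.

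The fractions differed much less than the treatments. In untreated cells MALAT1 was higher in CCNB1-positive cells by 0.25 on the log2 scale, and the 2 groups did not overlap, which held for 16.3% of tested genes in that direction. In treated cells MALAT1 was lower in CCNB1-positive cells by 0.47, with overlapping libraries, while between libraries of the same replicate number the difference was -0.48 and -0.47. NEAT1 differed between fractions by -0.16 in untreated and -0.02 in treated cells, CCNB1-positive minus CCNB1-negative, with overlap in both. KCNQ1OT1 was lower in CCNB1-positive cells by 0.46 in untreated cells, with overlap, and by 0.73 in treated cells, without overlap. Between same-numbered libraries its difference was -0.35 and -0.56 in untreated and -0.58 and -0.87 in treated cells. That of NEAT1 was 0.10 and -0.41, and 0.014 and -0.057. Same-numbered fractions of a treatment deviated together over all genes, but the labels do not say what they share. A fall without overlap was seen in treated cells for 31% of tested genes. The response in CCNB1-positive cells minus that in CCNB1-negative cells was -0.72 for MALAT1, 0.13 for NEAT1 and -0.27 for KCNQ1OT1, the last of which changed sign when either of 2 libraries was left out: it was 0.056 without untreated CCNB1-positive replicate 1 and 0.014 without treated CCNB1-negative replicate 2. That of NEAT1 was between -0.34 and 0.61 with 1 library left out, and that of MALAT1 between -1.02 and -0.42. The difference of MALAT1 between fractions in treated cells was then between -0.78 and -0.17.

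Ordered by level, both treated groups stood above both untreated groups for each RNA. Within the treated groups CCNB1-negative cells had the higher mean for all 3, but their libraries overlapped those of CCNB1-positive cells for MALAT1 and NEAT1. Per length, in RPKM (reads scaled to gene length and library size), the 3 RNAs kept the order MALAT1, NEAT1, KCNQ1OT1 in all 8 libraries. MALAT1 averaged 369 ± 35.8 (SD, n = 2) in untreated CCNB1-negative, 435 ± 3.88 in untreated CCNB1-positive, 4126 ± 1242 in treated CCNB1-negative and 2890 ± 867 in treated CCNB1-positive cells. NEAT1 averaged 9.34 ± 2.08, 8.71 ± 3.96, 48.8 ± 6.60 and 46.9 ± 8.21 RPKM in the same groups. KCNQ1OT1 averaged 0.362 ± 0.082, 0.267 ± 0.086, 2.82 ± 0.82 and 1.63 ± 0.24 RPKM. The per-kilobase ratio of MALAT1 to NEAT1 ranged from 36.4 to 74.1 in untreated libraries and from 43.2 to 113 in treated ones. Within every group that ratio was higher in replicate 2, and the ranges of treated and untreated libraries overlapped. The row of NEAT1 sums its short and long forms, so neither form is measured alone.

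The rise of the 3 RNAs took a visible part of the treated libraries. Together they held 0.324% to 0.411% of gene reads in untreated and 2.14% to 4.55% in treated libraries. Other lncRNA genes, 16677 rows, held 2.27% to 2.61% of untreated and 3.49% to 4.58% of treated libraries. The mRNAs of the mitochondrial genome, which lie outside the nucleus, held 4.44% to 7.80% of untreated and 11.9% to 14.8% of treated libraries. Of these 13 mRNAs, 9 were called higher in the CCNB1-negative fraction, 8 in the CCNB1-positive one, and 0 lower in either by limma. Of all tested genes, 38.2% and 38% were called higher and 35.8% and 27.3% lower. MT-CO1, a subunit of cytochrome c oxidase, was higher by 1.41 ± 0.40 (SE; adjusted p = 0.0057, limma) in CCNB1-negative cells, a call that ended with quantile normalisation (0.041), with no filter and without untreated replicate 2 (1.06). With TMM factors 2 and 1 of the 13 were called higher, where 39% and 39.9% of all genes called were higher. With quantile normalisation MT-CO2 stood at -0.27 and -0.092. Mitochondrial and nuclear-retained RNA thus both took larger shares of the treated libraries. At the deposited scaling by total read count, reads on genes were 89.2% to 93.1% of the highest library in treated and 98.6% to 100% in untreated libraries. Genes with reads numbered 25038 to 25352 in treated and 22138 to 24227 in untreated libraries. The part of RNA quality or of cytoplasmic RNA content in any of these differences was not tested.

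**Figure D2:**
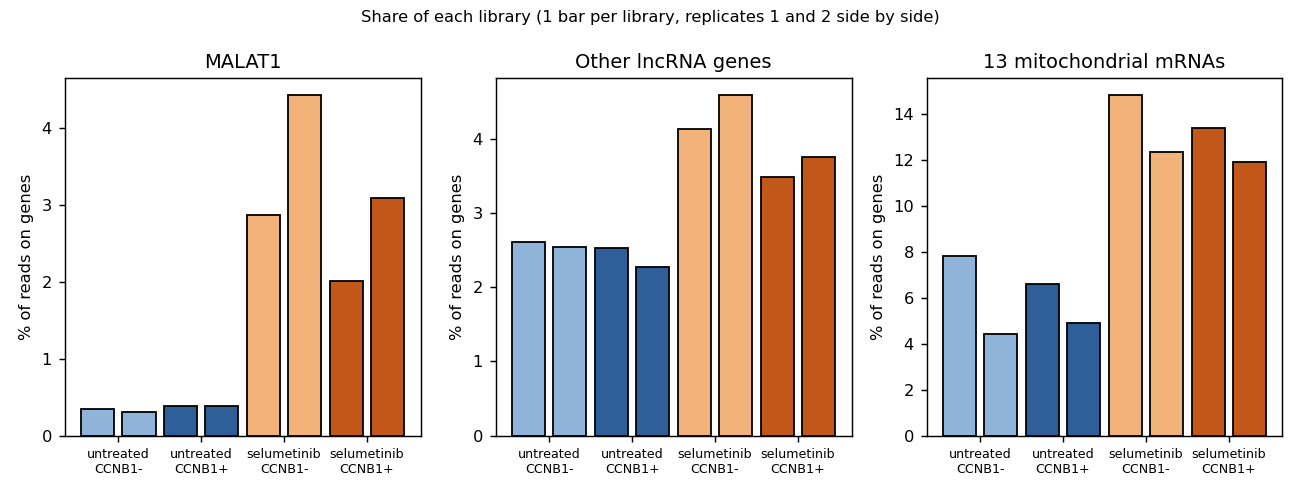
Percent of all reads on genes (vertical axes from 0) taken by MALAT1, by all other lncRNA genes and by the 13 mitochondrial mRNAs, with 1 bar per library. MALAT1 takes at most 0.386% of untreated libraries and 2.01% to 4.42% of treated ones, and both other classes also have their higher shares in the 4 treated libraries.

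As a class, chosen after the values were seen, lncRNAs were called higher more often than protein-coding genes. Without the 3 RNAs, 54.5% of 1860 tested lncRNAs were called higher with selumetinib in CCNB1-negative cells and 13.6% lower, against 35.6% and 39.5% of 12191 protein-coding genes. In CCNB1-positive cells the shares were 59.7% and 7.31% of lncRNAs and 34.6% and 30.6% of protein-coding genes. The 2 classes were not matched by level. Of all genes called, 51.6% and 58.1% were higher in the 2 fractions, and 42.2% and 46.3% at a mean of at least 10 RPM. The median log2 difference was 0.93 for lncRNAs and -0.07 for protein-coding genes in CCNB1-negative cells, and 1.07 and 0.05 in CCNB1-positive cells. MALAT1, NEAT1 and KCNQ1OT1 each exceeded the lncRNA median by more than 1 log2 unit in both fractions. The median of all tested genes was 0.05 and 0.17 in the 2 fractions under the deposited scaling, -0.32 and -0.20 with TMM factors, and 0.37 and 0.42 when libraries were scaled to reads without the 3 RNAs and the mitochondrial mRNAs.

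The row of the small RNA past the MALAT1 end was counted as well. As the libraries were poly(A)-selected, its reads may come from the cut small RNA or from uncut transcripts, which was not tested. This row had 48 and 38 reads in untreated CCNB1-negative, 37 and 25 in untreated CCNB1-positive, 77 and 54 in treated CCNB1-negative and 78 and 66 in treated CCNB1-positive libraries. Per 1000 reads on MALAT1 this was 0.628, 0.656, 0.405 and 0.294 in the untreated libraries and 0.192, 0.0963, 0.194 and 0.151 in the treated ones, in the same order. All 4 treated ratios were below all 4 untreated ones, so the row rose by less than MALAT1 did. The nearest libraries of the 2 conditions were not separated by counting error: the 95% Wilson interval was 0.199 to 0.433 for untreated CCNB1-positive replicate 2 and 0.156 to 0.242 for treated CCNB1-positive replicate 1. This row lies inside the MALAT1 gene of the table and its reads may also be counted for MALAT1, and the ratio was chosen after its values were seen. The row past the NEAT1 end had 0 reads in all 8 libraries, which allows up to 3 reads, or 0.125 to 0.236 RPM per library.

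**Figure D3:**
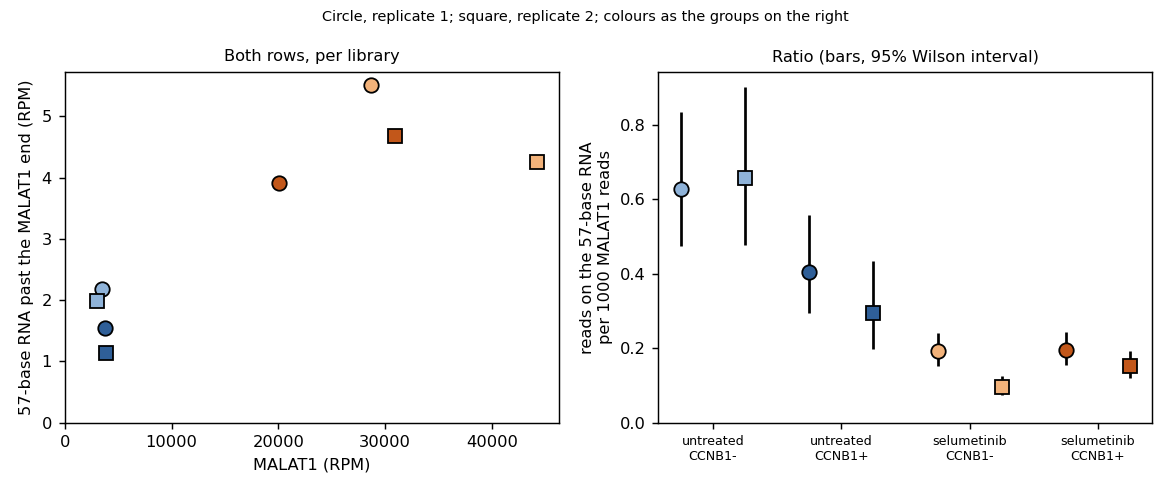
Left, RPM on the row of the 57-base RNA past the MALAT1 end against RPM on MALAT1, with 1 point per library. Right, reads on that row per 1000 MALAT1 reads, 0.294 to 0.656 in untreated and 0.0963 to 0.194 in treated libraries, with 95% Wilson intervals.

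The reads were assigned by strand. Of 59 rows that lie wholly inside an exon of an opposite-strand gene with at least 1000 reads in every library, 7 had no read, the median read density was 0.385% of that of the gene on the other strand, and 1 exceeded 50% of it. An antisense row inside MALAT1 had 0 reads in 7 libraries and 1 read in treated CCNB1-negative replicate 2. KCNQ1OT1 and KCNQ1, which overlap on opposite strands, can therefore be read apart, and 1 of 22 KCNQ1 exons, with 121 of 4450 exon bases, lies inside KCNQ1OT1.

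Encoded runs of A, which oligo(dT) can bind, were found in all 3 RNAs. MALAT1 held 1 run of at least 10 A, 406 bases from its annotated end. NEAT1 held 5, the longest of 22 bases, and KCNQ1OT1 held 17, the longest of 29 bases. The longest runs of NEAT1 and KCNQ1OT1 are shown, each with 15 bases on either side, because these are the stretches most like a poly(A) tail inside the RNAs. Capitals mark the run, and they lie at chr11:65440828-65440879 on the plus strand and chr11:2610702-2610760 on the minus strand.
NEAT1 run: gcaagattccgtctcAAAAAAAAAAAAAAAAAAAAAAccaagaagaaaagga
KCNQ1OT1 run: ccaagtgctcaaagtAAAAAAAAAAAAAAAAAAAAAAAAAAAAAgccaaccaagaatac
Runs of at least 10 A numbered 1.13, 2.20 and 1.85 per 10 kb in MALAT1, NEAT1 and KCNQ1OT1, against 0.86 per 10 kb over the longest transcripts of 14136 tested genes, 23.3% of which held such a run outside their last 30 bases.

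The genes around NEAT1 and MALAT1 did not share their rise. Where values are given for both fractions from here on, the CCNB1-negative one comes first, and each is a log2 difference between selumetinib-treated and untreated cells ± SE from limma. Of 14 tested protein-coding neighbours, 3 rose and 7 fell in CCNB1-negative cells, where 38.2% of tested genes were called higher and 35.8% lower. In CCNB1-positive cells 2 rose and 5 fell, where 38% were called higher and 27.3% lower. With TMM factors 1 rose and 9 fell in the first fraction and 0 rose and 9 fell in the second, and 4 rose and 4 fell in the first when libraries were scaled without the 3 RNAs and the mitochondrial mRNAs. Of all genes called, 51.6% and 58.1% were higher under the deposited scaling and 39% and 39.9% with TMM factors. Scaled without the 3 RNAs and the mitochondrial mRNAs, 63.2% were higher in the first fraction. FRMD8, a cofactor of rhomboid pseudoproteases and the closest gene at 9.2 kb from NEAT1, had log2 values of 10.60 and 10.28 in untreated and 9.62 and 9.17 in treated CCNB1-negative cells. It fell by 1.05 ± 0.18 (SE; adjusted p = 0.00013, limma) there, and in the other fraction it stood at -0.32 and did not pass (adjusted p = 0.13, limma). LTBP3 (32.3 kb), which binds latent TGF-β, rose by 0.98 ± 0.17 and 0.58 ± 0.17 (adjusted p = 0.00016 and 0.0098, limma). Its call in CCNB1-positive cells ended with TMM factors (0.21), without untreated replicate 2 (0.39) and without treated replicate 1 (0.45) of that fraction.

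The other neighbours described changed by less than the 3 RNAs, apart from a fall in POLA2. SIPA1 (131.6 kb), which acts on the GTPase RAP1, rose by 0.74 ± 0.22 and 0.87 ± 0.22 in the 2 fractions, and both calls ended with TMM factors (0.37 and 0.51) and without treated replicate 1 of the fraction (0.54 and 0.60), the first also without untreated replicate 2 (0.57). POLA2 (117.2 kb before NEAT1), a subunit of DNA polymerase alpha, fell by 2.69 ± 0.17 in the CCNB1-negative and fell by 0.79 ± 0.17 in the CCNB1-positive fraction. CDC42EP2 (100.4 kb), a CDC42 effector, fell by 0.95 ± 0.20 in CCNB1-negative cells and also fell in the other fraction. ZNRD2 (63.9 kb) fell (-1.13 ± 0.16 and -0.78 ± 0.16). EHBP1L1 (69.5 kb) fell by 0.73 ± 0.20 in CCNB1-negative cells and stood at -0.29 in the other fraction, and its call ended when libraries were scaled without the 3 RNAs and the mitochondrial mRNAs (-0.42), without untreated replicate 1 (-0.52) and without treated replicate 2 (-0.47). RELA (147.1 kb), a subunit of NF-κB, fell (-0.59 ± 0.17 and -0.45 ± 0.17), and so did PCNX3 at 109.3 kb (-0.48 ± 0.17 and -0.45 ± 0.17). Both were named after their values were seen. Scaled without the 3 RNAs and the mitochondrial mRNAs none of their 4 calls held (-0.27 and -0.19 for RELA, -0.16 and -0.20 for PCNX3). DPF2 (68.5 kb), a subunit of BAF chromatin remodelling complexes, was called higher in CCNB1-negative cells by 0.36 ± 0.14 and stood at -0.0053 there with TMM factors, and its call ended without any of 5 single libraries (0.29 to 0.44). Neither SLC25A45 (39.1 kb), TIGD3 (65.2 kb), FAM89B (65.8 kb) nor MAP3K11 (91.2 kb) passed the test in either fraction, with differences between -0.47 and 0.69. KCNK7 (86.3 kb) had 5 to 16 reads and was not tested.

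**Figure D4:**
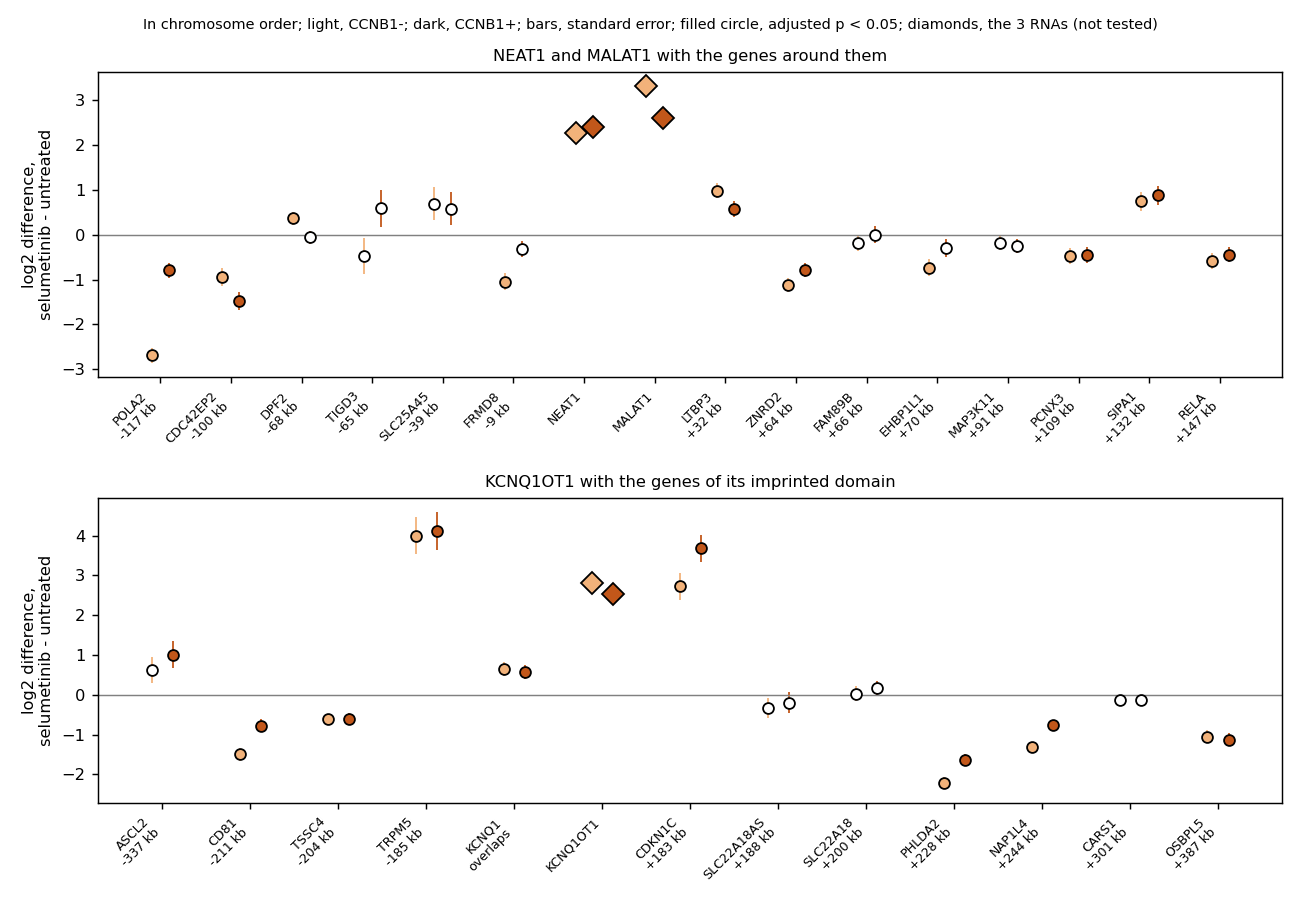
Log2 difference between selumetinib-treated and untreated cells (vertical axes) of the genes around NEAT1 and MALAT1 (top) and around KCNQ1OT1 (bottom), in chromosome order with the distance in kb under each name, and with CCNB1-negative cells in light and CCNB1-positive cells in dark colour. Error bars are standard errors and filled circles passed an adjusted p under 0.05. The 3 RNAs (diamonds, not tested) stand at 2.26 to 3.32, above every plotted neighbour of NEAT1 and MALAT1, while TRPM5 and CDKN1C reach as high as KCNQ1OT1.

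Around KCNQ1OT1 the imprinted genes went both ways. Of 12 tested genes of the domain and its flanks, 3 rose and 5 fell in the CCNB1-negative fraction, while 4 rose and 5 fell in the CCNB1-positive one, against 38.2% and 38% of all tested genes called higher and 35.8% and 27.3% called lower. With TMM factors 2 rose and 7 fell, and 2 rose and 6 fell, where 39% and 39.9% of all genes called were higher (51.6% and 58.1% under the deposited scaling). CDKN1C, an inhibitor of cyclin-dependent kinases that KCNQ1OT1 is known to silence in cis, had log2 values of 6.22 and 6.11 in untreated and 9.03 and 8.76 in treated CCNB1-negative cells, and of 5.39 and 4.13 in untreated and 8.62 and 8.27 in treated CCNB1-positive cells. It rose by 2.73 ± 0.34 and 3.68 ± 0.34 (SE; adjusted p = 6.2e-06 and 1.2e-06, limma), so that CDKN1C and KCNQ1OT1 were both higher in the treated libraries. In untreated cells CDKN1C was lower in CCNB1-positive cells by 1.41 ± 0.34 (adjusted p = 0.039, limma), where 1.51% of tested genes were called lower. It was the one gene of the domain called there, but the call ended with quantile normalisation (-1.04), with voom (-1.38), when libraries were scaled without the 3 RNAs and the mitochondrial mRNAs (-1.42), with no filter, with the groups compared alone, and without any 1 of 7 of the 8 libraries (-1.46 to -0.78, the last without untreated CCNB1-positive replicate 2).

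KCNQ1, the potassium channel gene in whose body KCNQ1OT1 lies, had log2 values of 10.26 and 9.77 in untreated and 10.57 and 10.75 in treated CCNB1-negative cells. It rose by 0.64 ± 0.17 and 0.58 ± 0.17 in the 2 fractions (adjusted p = 0.0042 and 0.0094, limma), much less than the antisense RNA. Both calls ended with TMM factors (0.27 and 0.22) and without untreated replicate 2 of the fraction (0.39 and 0.51), the second also without treated replicate 1 (0.49). TRPM5, a cation channel of taste and tuft cells, rose by 4.00 ± 0.48 and 4.12 ± 0.48 from few reads, 4 to 181 per library. PHLDA2, a placental growth regulator that is also silenced in cis, fell (-2.22 ± 0.15 and -1.64 ± 0.15). CD81, a tetraspanin, fell (-1.49 ± 0.16 and -0.78 ± 0.16), and OSBPL5, a lipid transfer protein, fell as well (-1.06 ± 0.16 and -1.13 ± 0.16). The median of the 12 genes was -0.23 and -0.17 under the deposited scaling and 0.09 in both fractions when libraries were scaled without the 3 RNAs and the mitochondrial mRNAs. Allele of origin was not measured.

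Other lncRNAs described as nuclear were called higher more often than lower, with shares called higher no larger than those of all lncRNAs. Of 26 on the list, 20 were tested, RMRP in 2 overlapping rows, which makes 21 rows. In CCNB1-negative cells 10 rose and 2 fell, with a median of 0.60, and in CCNB1-positive cells 12 rose and 1 fell, with a median of 0.56, while 38.2% and 38% of all tested genes rose, 35.8% and 27.3% fell, and their medians were 0.05 and 0.17. FTX, an RNA of the X inactivation centre, rose by 2.55 ± 0.20 and 2.08 ± 0.20, from 11.04 and 10.63 to 13.20 and 13.56 in CCNB1-negative cells. LINC-PINT, a p53-induced RNA, rose by 2.65 ± 0.19 and 1.78 ± 0.19, and GABPB1-AS1 by 2.20 ± 0.18 and 1.88 ± 0.18. CYTOR fell (-2.01 ± 0.19 and -0.88 ± 0.19). LUCAT1 fell by 1.84 ± 0.35 in CCNB1-negative cells, and it stood at -0.71 in the other fraction, where it did not pass. TUG1, named after its values were seen as another abundant nuclear RNA, stood at 0.03 (adjusted p = 0.88, limma) in the CCNB1-negative fraction and rose by 0.48 in the other (adjusted p = 0.011, limma). That call ended with TMM factors (0.11), without untreated CCNB1-positive replicate 2 (0.34) and without treated CCNB1-positive replicate 2 (0.46). With TMM factors 8 rows rose and 5 fell in the CCNB1-negative fraction, while 9 rose and 3 fell in the other. Of all genes called, 39% and 39.9% were higher with TMM factors, against 51.6% and 58.1% under the deposited scaling.

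Among the mRNAs of proteins listed for paraspeckles, the bodies that NEAT1 scaffolds, more fell than rose. Of 24 tested, 17 fell and 2 rose in CCNB1-negative cells, with a median of -0.91, and 13 fell and 2 rose in CCNB1-positive cells, with a median of -0.59. Of all tested genes, 35.8% and 27.3% fell and 38.2% and 38% rose. With quantile normalisation 14 fell and 3 rose, and 8 fell and 4 rose, where 47.4% and 47.5% of all genes called were higher (51.6% and 58.1% under the deposited scaling). HNRNPR had log2 values of 12.42 and 12.71 in untreated and 10.25 and 10.06 in treated CCNB1-negative cells, and fell (-2.41 ± 0.16 and -1.63 ± 0.16) in the 2 fractions. HNRNPK, which is required for paraspeckles to form, fell (-2.13 ± 0.17 and -1.45 ± 0.17). AKAP8L rose by 0.93 ± 0.16 and 0.45 ± 0.16, and CIRBP, the cold-inducible RNA-binding protein, by 0.90 ± 0.17 and 0.83 ± 0.17. The call of AKAP8L in CCNB1-positive cells ended with TMM factors (0.08), without untreated replicate 2 (0.31) and without either treated replicate (0.42 and 0.47) of that fraction. Of the 3 core paraspeckle proteins, named after their values were seen, NONO fell (-0.99 ± 0.20 and -0.78 ± 0.20) and so did SFPQ (-0.9997 ± 0.20 and -0.55 ± 0.20). In CCNB1-positive cells the call of NONO ended with quantile normalisation (-0.38) and without treated replicate 2 (-0.59), and that of SFPQ with quantile normalisation (-0.0046), with voom (-0.44), when libraries were scaled without the 3 RNAs and the mitochondrial mRNAs (-0.29), with no filter, without untreated replicate 1 (-0.42) and without treated replicate 2 (-0.47). PSPC1 stood at 0.07 and 0.02 (adjusted p = 0.67 and 0.91, limma).

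Proteins of the speckles in which MALAT1 resides, and other SR splicing proteins, split. Of 24 tested genes 6 rose and 13 fell in CCNB1-negative cells, with a median of -0.49, and 6 rose and 10 fell in CCNB1-positive cells, with a median of -0.25 that stood at 0.07 with quantile normalisation. Of all tested genes, 38.2% and 38% rose and 35.8% and 27.3% fell. With TMM factors 2 rose and 15 fell, and 3 rose and 14 fell, and with quantile normalisation 9 rose and 11 fell, and 10 rose and 9 fell. Of all genes called, 51.6% and 58.1% were higher under the deposited scaling, 39% and 39.9% with TMM factors and 47.4% and 47.5% with quantile normalisation. ALYREF, an mRNA export adaptor, fell (-2.78 ± 0.16 and -1.51 ± 0.16). SRSF1, the SR protein known to be bound by MALAT1, fell (-1.89 ± 0.16 and -1.24 ± 0.16), from 13.09 and 13.16 to 11.44 and 11.03 in CCNB1-negative cells. U2AF2, which recognises the polypyrimidine tract, fell (-1.69 ± 0.18 and -1.30 ± 0.18). SRSF11 rose by 0.90 ± 0.18 and 1.01 ± 0.18, and CLK4, a kinase of SR proteins, by 0.80 ± 0.19 and 0.97 ± 0.19. The speckle scaffolds SON and SRRM2, named after their values were seen, stood at -0.39 and 0.78 in CCNB1-negative cells, both called, and at -0.20 and 0.43 in CCNB1-positive cells, neither called. The call of SON ended with quantile normalisation (-0.08), with voom (-0.24), when libraries were scaled without the 3 RNAs and the mitochondrial mRNAs (-0.07), with the groups compared alone and without 3 single libraries (-0.42 to -0.32), and that of SRRM2 with TMM factors (0.42) and without untreated replicate 2 (0.47).

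Among the mRNAs of the machinery that degrades nuclear RNA, more fell than rose. Of 20 genes of the nuclear exosome and its adaptors, 15 fell and 2 rose in CCNB1-negative cells, with a median of -1.18, and 13 fell and 2 rose in CCNB1-positive cells, with a median of -0.60, where 35.8% and 27.3% of all tested genes fell and 38.2% and 38% rose. The exosome core subunit EXOSC9 fell (-2.30 ± 0.15 and -1.35 ± 0.15), and so did EXOSC5 (-2.03 ± 0.16 and -1.80 ± 0.16). EXOSC5 went from 11.04 and 11.15 to 9.07 and 9.07 in CCNB1-negative cells. The genes that rose were ZCCHC7, a subunit of the TRAMP adaptor, by 1.71 ± 0.19 and 0.94 ± 0.19, and ZFC3H1, of the PAXT adaptor, by 0.73 ± 0.18 and 0.52 ± 0.18. Both calls of ZFC3H1 ended with TMM factors (0.36 and 0.16), and the second also without any of 3 single libraries (0.44 to 0.55).

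Of 13 genes that process or bind the MALAT1 and NEAT1 ends, 11 fell and 1 rose in CCNB1-negative cells (median -1.43), and 10 fell and 0 rose by limma in CCNB1-positive cells (median -0.88), against the same shares of all tested genes. Those are mostly subunits of RNase P. RPP40 fell (-2.76 ± 0.23 and -1.72 ± 0.23), as did POP7 (-2.28 ± 0.15 and -1.21 ± 0.15) and POP1 (-1.44 ± 0.16 and -1.28 ± 0.16). RPP38 rose by 0.69 ± 0.14 in CCNB1-negative cells (adjusted p = 0.00065, limma), a call that ended with TMM factors (0.32). METTL16, which binds the MALAT1 helix and was named after its values were seen, stood at 0.25 and -0.17 and did not pass in either fraction. The medians of the paraspeckle, decay and end processing lists were below 0 in both fractions under every scaling tried.

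Between the fractions, few genes of these lists were called in untreated cells and more were called in treated cells. The fit does not pair same-numbered fractions, and the counts of these lists are given without such a block. With a block for them, added after seeing the data, 1923 tested genes were called in untreated cells (408 without it) and 6671 in treated cells (3077). For the difference of responses 3850 were called (758), of which 71.1% were higher (93.5%). In untreated cells 0 genes of the paraspeckle, speckle, decay and end processing lists were called by limma, and 1 nuclear lncRNA was, where 1.36% of tested genes were called higher and 1.51% lower in CCNB1-positive cells. In treated cells, where 13.8% were called higher and 7.87% lower, 9 of 24 paraspeckle genes, 7 of 24 speckle genes, 5 of 20 decay genes and 4 of 13 end processing genes were higher in CCNB1-positive cells. The decay gene ZCCHC7 (-0.81 ± 0.19) and the end processing gene RPP38 (-0.47 ± 0.14) were lower there. Of the nuclear lncRNAs 1 row was higher and 5 were lower, FTX by -0.75 ± 0.20, LINC-PINT by -0.78 ± 0.19 and GABPB1-AS1 by -0.92 ± 0.18. The calls of FTX (-0.57), LINC-PINT (-0.49), ZCCHC7 (-0.54) and RPP38 (-0.45) ended without treated CCNB1-negative replicate 2, and also without treated CCNB1-positive replicate 1 (-0.66, -0.75, -0.62 and -0.44). Of the higher calls, those of SFPQ (0.53), HNRNPK (0.42), SRSF1 (0.49) and U2AF2 (0.25) also ended without treated CCNB1-negative replicate 2. The same calls ended without treated CCNB1-positive replicate 1 (0.73, 0.54, 0.71 and 0.49). That of U2AF2 ended under other settings too, for example scaled without the 3 RNAs and the mitochondrial mRNAs (0.46). Those of HNRNPR, ALYREF and POP7 held with 1 library left out. KCNQ1OT1 stood at -0.73 between the fractions in treated cells. The response itself differed between the fractions for 3 of 20 decay genes and 3 of 13 end processing genes. It also differed for 1 speckle gene, 1 nuclear lncRNA and 1 neighbour of NEAT1, POLA2. Each had the higher response in CCNB1-positive cells, a direction called for 4.99% of tested genes (0.345% in the other).

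**Figure D5:**
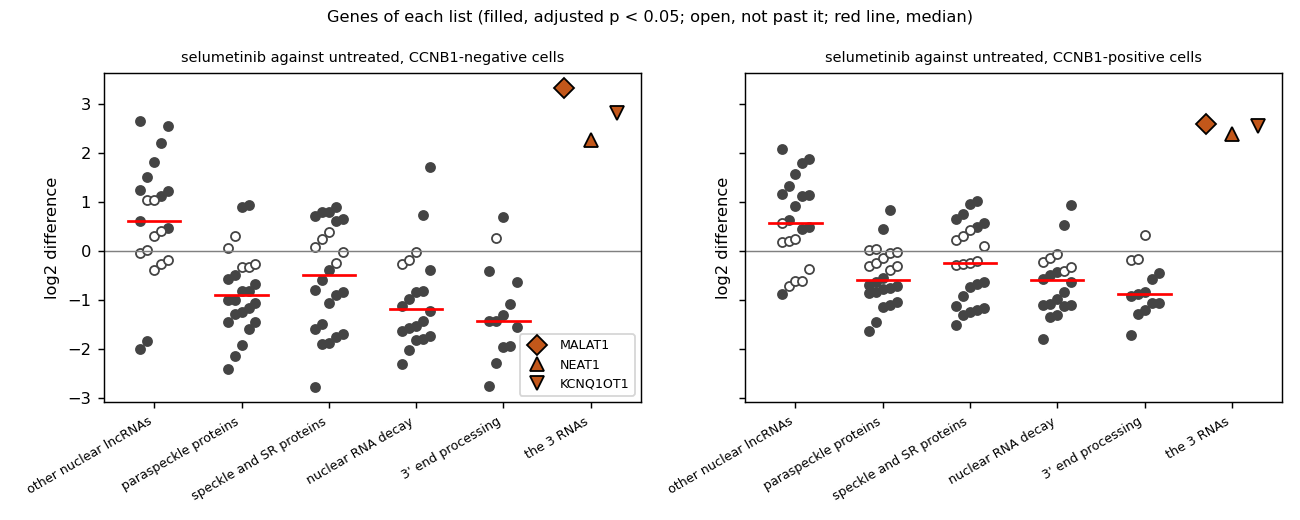
Log2 difference between selumetinib-treated and untreated cells (vertical axes) for each gene of 5 lists, in CCNB1-negative (left) and CCNB1-positive cells (right), with filled points for an adjusted p under 0.05 and a red line at the median. The 3 RNAs, not tested, stand at 2.26 to 3.32 and 2.39 to 2.59, while the medians of the 4 protein lists lie between -1.43 and -0.25.

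The genes whose profile was most like that of each RNA were found as those with the smallest root mean square difference of centred log2 values over the 8 libraries. Tested genes named only by a clone identifier, many of which may be lncRNAs, and others not reported here were left out of this search. For MALAT1 they were EXOC6B (0.138), CDC42-IT1 (0.165), MAST4 (0.167), GAB2 (0.183) and TTC6 (0.194), against an SD of MALAT1 itself of 1.61 over the libraries. For NEAT1 they were GRAMD1C (0.143), GSDMB (0.151), PLEKHH2 (0.151), PRSS22 (0.154) and VANGL2 (0.161). For KCNQ1OT1 they were NHS (0.088), ZNF713 (0.0997), LINC01091 (0.109), CREBRF (0.133) and C3orf35 (0.135). The genes nearest to MALAT1 span 5 to 650.1 kb of the genome, those nearest to NEAT1 5.4 to 130.7 kb and those nearest to KCNQ1OT1 55.1 to 423.7 kb, while the median tested gene spans 32.2 kb. Between the 3 RNAs the same measure was 0.361 for MALAT1 and KCNQ1OT1, 0.430 for NEAT1 and KCNQ1OT1 and 0.566 for MALAT1 and NEAT1. Seen from MALAT1, KCNQ1OT1 ranked 124th and NEAT1 674th among the genes searched, and seen from NEAT1, KCNQ1OT1 ranked 638th and MALAT1 1496th. Ranks among all tested genes, with those left out, were not taken.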

How the data were processed

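RNA of HT29 cells was sequenced after poly(A) selection with a directional kit. Per the submitters' notes and methods, Trim Galore 0.5.0 was used for trimming, HISAT2 2.1.0 for alignment to GRCh38, and SeqMonk 1.47.0 for quantification per gene. The authors deposited log2 normalised read counts, each library scaled by total read count to the largest. The annotation release is not given in the sources used here. Growth media differ between the labels (RPMI-1640) and the study's methods (McCoy's). All 8 value columns were used.

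Whole reads were recovered from the log2 values by taking off 1 constant per library, for 100% of genes with reads (tolerance 0.05 reads), and genes without reads stand at 0.9 reads. Depth was 12696860 to 23916160 reads on genes per library. Replicates differed by more than sampling noise (chi-square per gene 17.3 to 33.5). The 14219 genes whose mean over the 8 libraries reached 1 RPM were fitted by limma-trend (limma 3.58.1, R 4.3.3), with 1 coefficient per group and Benjamini-Hochberg adjustment. The steps were tested on simulated data. The authors' own test was DESeq2.

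The 3 RNAs and the gene lists were chosen with earlier results of these data known. Named from each list are the called genes with the greatest rises and falls, up to 2 of each per fraction, with the neighbours within 100 kb except 1 that is not reported here, KCNQ1, the 5 nearest profiles of each RNA, and CCNB1 and DUSP6. Alternatives were no filter, a mean of at least 10 RPM, quantile normalisation, TMM factors, scaling without the 3 RNAs and mitochondrial mRNAs, limma-voom on the recovered reads, the replicate number as a block, only the groups compared, each library left out, and an adjusted p under 0.01. A block for the fractions of each treatment and replicate number was added after seeing the data. Same-numbered fractions of a treatment deviated together (correlation 0.352 untreated, 0.428 treated), and other same-numbered groups did not (-0.088 to 0.082). The values thus showed no pairing of treated with untreated libraries by number, and the labels do not say whether they were set up as pairs. GENCODE release 44, on the same build, held 99.3% of the gene identifiers, and Python 3.11.15 with pandas 2.3.3 and matplotlib 3.10.9 was used for the rest.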

Additional observations from a re-analysis of the deposited data

Results flagged for a closer look

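For 7 genes named here, limma's test of the difference between the 2 fractions' responses to selumetinib passed an adjusted p of 0.05, where 4.99% of tested genes were called with the higher and 0.345% with the lower response in CCNB1-positive cells. For 5 genes of the lists the response was higher, that is a smaller fall, in CCNB1-positive than in CCNB1-negative cells: by 1.90 ± 0.24 (SE) for POLA2, 1.27 ± 0.22 for ALYREF, 1.12 ± 0.27 for CYTOR, 1.08 ± 0.22 for POP7 and 0.95 ± 0.21 for EXOSC9 on the log2 scale. Adjusted p-values (limma) were 0.00013, 0.0027, 0.028, 0.0075 and 0.018. The calls of CYTOR (1.02 to 1.21) and EXOSC9 (0.80 to 0.98) each ended without any of 6 single libraries, and that of CYTOR also with voom (1.07), with no filter and when libraries were scaled without the 3 RNAs and the mitochondrial mRNAs (1.06). The call of POP7 ended without untreated CCNB1-negative replicate 2 (0.97) or treated CCNB1-positive replicate 2 (0.98). CCNB1, whose protein was the basis of the sort, differed by 2.99 (adjusted p = 1.8e-05, limma). EXOC6B, chosen because its profile is the nearest to that of MALAT1 among the genes searched, differed the other way by -1.09 (adjusted p = 0.033, limma). The fit did not pair same-numbered fractions. With a block for them, 3850 genes were called for the difference of responses rather than 758, and 71.1% of these were higher rather than 93.5%. Groups of 2 libraries are too small for a check of single libraries that stand apart.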

How the results depend on the processing

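The rise of MALAT1, NEAT1 and KCNQ1OT1 with selumetinib kept its direction under every alternative run, but its size followed the scaling. With quantile normalisation, which fixes the values of the leading ranks, it was 2.31 and 1.59 for MALAT1 in CCNB1-negative and CCNB1-positive cells and 2.84 for NEAT1 in CCNB1-negative cells. With TMM factors it was 2.95 and 2.23 for MALAT1, 1.89 for NEAT1 in CCNB1-negative cells, and 2.44 and 2.17 for KCNQ1OT1. Scaled without the 3 RNAs and mitochondrial mRNAs it was 3.63 for MALAT1 and 2.57 for NEAT1 in CCNB1-negative cells. The differences between fractions were less stable: that of MALAT1 in untreated cells was 0.49 with quantile normalisation, that of NEAT1 in treated cells 0.051 with TMM factors, and the difference of its responses -0.050 with quantile normalisation. With 1 library left out, NEAT1 ranged from -0.63 to 0.32 between fractions in untreated cells, from -0.21 to 0.17 in treated cells and from -0.34 to 0.61 for the difference of responses, and KCNQ1OT1 from -0.60 to 0.056 for the last. DPF2 stood at -0.0053 in CCNB1-negative cells with TMM factors, and MT-CO2 at -0.27 and -0.092 with quantile normalisation. Beyond the scalings' construction, the cause was not tested.

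Genes called between fractions numbered 408 in untreated cells, 259 with no filter, 244 with quantile normalisation, 217 at an adjusted p under 0.01, and 224 to 455 with 1 library left out (224 without untreated CCNB1-positive replicate 2, 229 and 263 without untreated CCNB1-negative replicate 2 and 1). In treated cells 3077 were called, 1338 at 0.01, and 1156 to 4279 with 1 library left out (1156 without treated CCNB1-negative replicate 2, 1278 and 1621 without treated CCNB1-positive replicate 1 and 2). The difference of responses was called for 758 genes, 496 with no filter, 426 at 0.01, and 489 to 1806 with 1 library left out, the highest without treated CCNB1-negative replicate 1, the lowest without untreated CCNB1-negative replicate 2, and 497 without treated CCNB1-positive replicate 2. With the replicate number as a block, calls were 10890 and 9764 for selumetinib in the 2 fractions (10530 and 9288 without), 500 and 3741 between fractions and 883 for the difference of responses, all within 1.5 times. Whether these numbers pair treated with untreated libraries is not stated in the labels. With a block for the fractions of each treatment and replicate number, added after seeing the data, calls were 1923 and 6671 between fractions and 3850 for the difference of responses. Of these, 35.1%, 57.6% and 71.1% were higher. The share of calls that were higher was 51.6% and 58.1% for selumetinib in the 2 fractions, 39% and 39.9% with TMM factors, 63.2% and 71.9% scaled without the 3 RNAs and mitochondrial mRNAs, and 47.4% and 47.5% with quantile normalisation. It also followed the level of the genes kept, at 61.6% and 66.9% with no filter and 42.2% and 46.3% at a mean of at least 10 RPM. Between fractions it was 47.5% in untreated cells (64.8% with quantile normalisation) and 63.6% in treated cells (47.9% with quantile normalisation, 53.1% scaled without the 3 RNAs and mitochondrial mRNAs, 73.6% with TMM factors, 49.7% with voom), and for the difference of responses 93.5% (70.9% with quantile normalisation). With 2 libraries per group, small differences between fractions in KCNQ1OT1, with as few as 416 reads, were limited by the spread between libraries more than by depth.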
